A study of Mus musculus with 12 samples.

Results

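Ern1, Atf6, Eif2ak3, Hspa5, Hsp90b1, Calr, Pdia4, Pdia6, Dnajb9 and Herpud1 are genes of the endoplasmic reticulum (ER) stress response. They were taken by symbol, and all 10 were found among the 24982 gene symbols of each file. Polyadenylated RNA of B lymphocytes from the spleens of mice aged 6 weeks was measured in 12 libraries, 4 for each of 3 genotypes. WT mice were C57BL/J6, as the series text spells it. Eμ-Myc mice carry a transgene in which Myc is driven by an immunoglobulin heavy-chain enhancer, active in the B lineage. Eμ-Myc; PRPS2 KO mice carry that transgene and lack PRPS2, an isoform of the enzyme that makes the phosphoribosyl pyrophosphate needed for nucleotides. They are called the knockout group here. The labels do not say in which cells Prps2 was deleted, whether a library came from 1 mouse, or whether the genotypes were littermates. The first comparison, Eμ-Myc against WT, asks what deregulated Myc changes. The second, knockout against Eμ-Myc, asks whether loss of PRPS2 alters that programme. Of the members, Pdia6, Hsp90b1 and Calr were higher in Eμ-Myc than in WT, in a comparison where 55.1% of all genes were called. The call of Calr depended on the scaling between libraries and on single libraries. No member was called between the knockout group and Eμ-Myc in the main test, which weights the 4 libraries of a group equally and uses no replicate block; 4 were called when libraries were weighted by quality, beside 7460 of all 12551 genes.

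The ER is where secreted and membrane proteins fold. When unfolded proteins build up there, sensors in its membrane start the unfolded protein response: IRE1, encoded by Ern1, splices the Xbp1 messenger RNA, ATF6 is cut to release a transcription factor, and PERK, encoded by Eif2ak3, phosphorylates the translation factor eIF2α. The response raises chaperones, which hold and fold proteins, and the machinery that removes misfolded ones. In the B lineage it is known above all from plasma cells, which need XBP1 to secrete antibody.

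The promoters of these genes are background to the values, because the response acts through the ER stress element, a sequence bound by the general factor NF-Y together with ATF6 or XBP1. The letters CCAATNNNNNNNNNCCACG (the ER stress element, here ERSE), ATTGGNCCACG (element II), TGACGTGG (an element bound by XBP1 and ATF6) and CACGTG (the E-box, a site of MYC and other factors) were searched on both strands. The search covered RefSeq windows (GRCm38.p6) of 250 bases before to 50 after each start, and 9 of 10 members had a window; Atf6 was not searched. ERSE was found in 4 of the 9 (Hspa5, Hsp90b1, Calr and Pdia6) and in 0.119% of all 32851 windows. Hsp90b1 held 2 copies in opposite orientations. Element II was found in Herpud1 and in 0.0365% of all windows. The XBP1 and ATF6 element was in none of the 9 and in 0.676% of all windows. The E-box was in Calr and Dnajb9, and in 7.15% of all windows. None of these letters were found in the windows of Ern1, Eif2ak3 and Pdia4, and no match in a member overlapped another. The stretches around the stress elements are shown as background. The members were chosen as genes of the response that acts through these elements, so the matches are not an independent result. Of these 5 genes, 4 hold the ERSE, and Herpud1 holds element II in its place. Each reads 5′ to 3′ along the gene's strand, with the element in capitals; in Calr and in the second copy of Hsp90b1 it lies on the opposite strand and reads CGTGG first. They lie at chr2:34772020-34772048 on the + strand (Hspa5), chr10:86705510-86705686 on the - strand (Hsp90b1), chr8:84847045-84847123 on the - strand (Calr), chr12:17266461-17266539 on the + strand (Pdia6) and chr8:94386347-94386417 on the + strand (Herpud1). The Hspa5 stretch lies inside an exon of a longer transcript in GENCODE M21, and the other stretches lie outside annotated exons.
Hspa5: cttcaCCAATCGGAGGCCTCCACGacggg
Hsp90b1: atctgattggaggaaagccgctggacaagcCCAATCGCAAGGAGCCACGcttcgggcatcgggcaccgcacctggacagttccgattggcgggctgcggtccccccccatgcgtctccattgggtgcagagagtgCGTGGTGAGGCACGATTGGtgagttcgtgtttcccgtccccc
Calr: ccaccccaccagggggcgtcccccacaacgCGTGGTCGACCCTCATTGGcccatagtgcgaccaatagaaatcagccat
Pdia6: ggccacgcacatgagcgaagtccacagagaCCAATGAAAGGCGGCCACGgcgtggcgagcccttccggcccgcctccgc
Herpud1: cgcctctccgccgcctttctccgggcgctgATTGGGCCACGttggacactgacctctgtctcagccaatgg

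**Figure D1:**
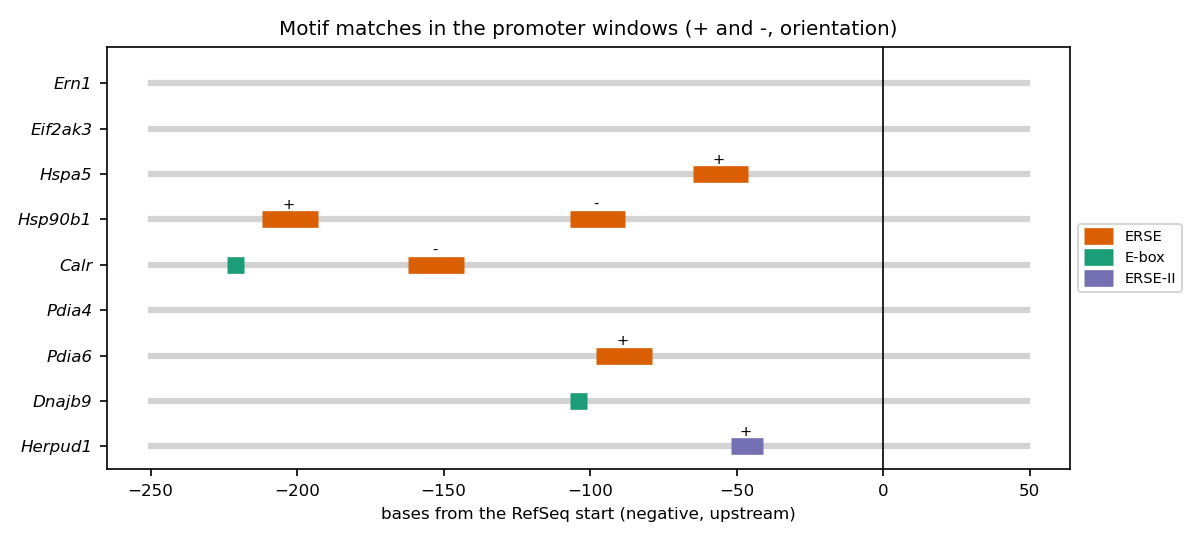
Motif matches in the promoter windows of 9 members; the x axis is the distance in bases from the RefSeq start, each grey bar is a window, coloured blocks are matches, and + and - give the orientation. The ERSE of Hspa5 lies 46 bases before the start, and the nearer copy of Hsp90b1 lies 88 bases before it.

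The deposited values are taken as mean coverage per gene, in arbitrary units scaled here between libraries; their sum before scaling ran from 1277305.5 to 1885768.9 per library. Read depth is unknown, so errors are SDs between the 4 libraries of a group. How the authors counted is not given in the sources used here. Over 12548 genes Spearman's rho between value and exon length was 0.0079, and levels are compared between genes on the reading that the values are per base. The members made up 0.176% to 0.234% of the sum. As a check of the labels, Prps2 averaged 125 ± 19.8, 246 ± 36.5 and 17.1 ± 0.857 (SD, n = 4) in WT, Eμ-Myc and knockout, and Myc averaged 272 ± 52.8, 1915 ± 311 and 2279 ± 1042. Neither went against a label. The 7 B-cell markers were present in every library, with sums of 6148 to 11980 in WT, 7225 to 9034 in Eμ-Myc and 6673 to 7388 in the knockout libraries; only Cd22 was called between Eμ-Myc and WT (-0.94). The knockout libraries fell apart. Over genes averaging 20 or more in scaled coverage, the SD of the log2 difference between 2 libraries was 0.27 for knockout libraries 1 and 2 and 0.18 for 3 and 4, but between 1.05 and 1.24 across these pairs. Within WT it was 0.20 to 0.59 and within Eμ-Myc 0.24 to 0.49. Libraries 3 and 4 of the knockout were the closest pair; without counts, sampling noise could not be tested, and they were kept as 2 samples. The labels call them biological replicates without naming the mice; if they came from 1 mouse, each value without libraries 1 and 2 rests on 1 sample of the knockout group. Counts of calls with the knockout group are therefore also given without libraries 1 and 2 and without 3 and 4, an alternative chosen after the data were seen.

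None of the 3 sensors was called in the main test of any comparison, but the calls of Ern1 and Eif2ak3 depended on the fit. Ern1 (chr11:106394650-106487852), which encodes the kinase and ribonuclease IRE1, was the lowest member. In replicate order, scaled coverage was 10.7, 5.91, 9.13 and 6.60 in the WT libraries, 7.38, 2.09, 5.85 and 5.41 in the Eμ-Myc libraries, and 9.55, 8.71, 3.11 and 3.00 in the knockout libraries. The groups overlapped, Eμ-Myc library 2 was the lowest of all, and knockout libraries 3 and 4 lay below every other library but that one. Against WT, the log2 fold change of Ern1 was -0.67 (SE 0.35, limma adjusted p 0.127) for Eμ-Myc and -0.52 (SE 0.42, adjusted p 0.325) for the knockout. Ern1 was called lower in Eμ-Myc with the replicate block (same fold change, adjusted p 0.0383). That block rests on no pairing, since same-numbered WT and Eμ-Myc libraries share only a number. With library quality weights Ern1 was called lower in the knockout than in WT (-1.16, adjusted p 3.54e-04) and Eμ-Myc (-0.79, adjusted p 0.00633). Against Eμ-Myc its direction turned with the fit: the log2 fold change was 0.15 in the main test, 0.87 without knockout libraries 3 and 4 and -0.57 without 1 and 2. For the knockout against WT it was 0.20 without knockout libraries 3 and 4, and was called lower without 1 and 2 (-1.24, adjusted p 0.00602). Without Eμ-Myc library 2, the value for Eμ-Myc against WT was -0.33.

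Eif2ak3 (chr6:70844515-70905245), which encodes PERK, was at 42.5, 52.7, 52.6 and 33.3 in the WT libraries, 41.6, 33.5, 38.0 and 42.6 in the Eμ-Myc libraries, and 45.0, 47.0, 27.2 and 27.1 in the knockout libraries. The ranges overlapped, and knockout libraries 3 and 4 held the lowest values. For Eμ-Myc against WT its log2 fold change was -0.20 (SE 0.16, limma adjusted p 0.320). It was -0.33 without WT library 4 and -0.12 without WT library 2 or 3. For the knockout against WT it was -0.33 (SE 0.25, adjusted p 0.290). With library quality weights Eif2ak3 was called lower in all 3 comparisons. For Eμ-Myc against WT it was -0.33 (adjusted p 0.0268). For the knockout it was -0.83 against WT (1.20e-04) and -0.52 against Eμ-Myc (0.00172). Without knockout libraries 3 and 4 the direction turned, to 0.046 against WT and 0.24 against Eμ-Myc. Without 1 and 2 it was called lower in both, at -0.70 (adjusted p 0.0170) and -0.51 (adjusted p 0.0276). Exons of Gm43292, on the opposite strand, share 8.05% of its exon bases, and whether the authors' counting used the strand is not given in the sources used here.

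Atf6 (chr1:170704674-170867771) encodes the precursor of the ATF6 factor. Its scaled coverage was 29.8, 27.5, 30.7 and 20.1 in the WT libraries, 28.8, 18.6, 29.8 and 28.5 in the Eμ-Myc libraries, and 28.9, 30.7, 28.1 and 28.4 in the knockout libraries. All but WT library 4 and Eμ-Myc library 2 lay between 27.5 and 30.7. For Eμ-Myc against WT the log2 fold change was -0.04 (SE 0.19, limma adjusted p 0.879), with a 95% interval of the fold from 0.724 to 1.31. The knockout gave 0.12 against WT (SE 0.16, adjusted p 0.540).

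Of the chaperones, Hsp90b1 and Calr were higher in Eμ-Myc and Hspa5 was not called. Hspa5 (chr2:34771970-34777547) encodes BiP, the HSP70 chaperone that binds the sensors' lumenal side. It was the highest member, with 1012, 840, 750 and 969 in the WT libraries, 991, 978, 1079 and 952 in the Eμ-Myc libraries, and 913, 1180, 1036 and 993 in the knockout libraries. The groups overlapped. Against WT, the log2 fold change was 0.17 (SE 0.11, 95% interval -0.08 to 0.43, limma adjusted p 0.223) for Eμ-Myc and 0.21 (SE 0.14, adjusted p 0.233) for the knockout. The sign of the first depended on the scaling: it was -0.01 when libraries were scaled by total coverage. It was 0.092 without WT library 3. With library quality weights Hspa5 was called higher than WT in Eμ-Myc (0.33, adjusted p 0.0106) and in the knockout group (0.27, adjusted p 0.0109).

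Hsp90b1 (chr10:86690209-86705509) encodes GRP94, the HSP90 chaperone of the ER, which folds Toll-like receptors and integrins. Its scaled coverage was 383, 428, 395 and 365 in the WT libraries, 592, 535, 632 and 665 in the Eμ-Myc libraries, and 483, 609, 655 and 634 in the knockout libraries. Every library of either Eμ-Myc genotype lay above every WT library. It was 1.54-fold higher in Eμ-Myc than in WT (95% interval 1.32 to 1.80, log2 fold change 0.62, SE 0.10, limma adjusted p 7.08e-04), and higher in 4 of 4 libraries than any WT library. The knockout libraries averaged 1.51-fold above WT (1.22 to 1.86, log2 fold change 0.59, SE 0.13, adjusted p 0.0215), a call lost without any single WT library or knockout library 3 or 4 and with the replicate block (adjusted p 0.0515). An overlapping pseudogene on the other strand, 1810014B01Rik, shares 10.3% of its exon bases.

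Calr (chr8:84841850-84846934) encodes calreticulin, the lectin chaperone and calcium store of the lumen. It was at 546, 645, 582 and 555 in the WT libraries, 688, 779, 681 and 693 in the Eμ-Myc libraries, and 621, 714, 698 and 699 in the knockout libraries. All Eμ-Myc libraries lay above all WT libraries, and knockout library 1 lay within the WT range. For Eμ-Myc against WT its fold was 1.22 (95% interval 1.05 to 1.42, log2 fold change 0.29, SE 0.09, limma adjusted p 0.0276). That call was lost with median-of-ratios scaling (0.23, adjusted p 0.0580), with total coverage scaling (0.11, adjusted p 0.334) and without WT library 1, 3 or 4 or Eμ-Myc library 3 or 4. In these last 5 fits the adjusted p was 0.0664, 0.0602, 0.0589, 0.0544 and 0.0609, while the log2 fold change stayed near that of all libraries, at 0.26, 0.29, 0.27, 0.31 and 0.30. For the knockout against WT the log2 fold change was 0.23 (SE 0.11, adjusted p 0.115). That comparison was called with library quality weights (0.22, adjusted p 0.00886) and without knockout libraries 1 and 2 (0.27, adjusted p 0.0472).

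Protein disulfide isomerases make and rearrange disulfide bonds. Pdia6 was called against WT and Pdia4 was not, and the difference between the 2 genes was not tested. Pdia6 (chr12:17266545-17284770), also an attenuator of IRE1 and PERK signalling, had the largest increase of the members. It was at 146, 171, 149 and 133 in the WT libraries, 246, 274, 268 and 270 in the Eμ-Myc libraries, and 191, 235, 307 and 295 in the knockout libraries. No library of either Eμ-Myc genotype overlapped WT, and the knockout libraries spread more widely (SD 54.2) than the Eμ-Myc libraries (SD 12.4). It was 1.77-fold higher in Eμ-Myc than in WT (95% interval 1.51 to 2.07, log2 fold change 0.82, SE 0.10, limma adjusted p 1.31e-04). The knockout group was 1.69-fold above WT (1.28 to 2.24, log2 fold change 0.76, SE 0.18, adjusted p 0.0245), and this call was lost in the same fits (0.0538 with the block).

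Pdia4 (chr6:47796141-47813430), which encodes ERp72, was at 181, 235, 217 and 152 in the WT libraries, 243, 196, 228 and 251 in the Eμ-Myc libraries, and 224, 281, 211 and 221 in the knockout libraries. WT overlapped both other groups, and the log2 fold changes against WT were 0.24 (SE 0.15, limma adjusted p 0.193) for Eμ-Myc and 0.27 (SE 0.17, adjusted p 0.221) for the knockout. The interval for Eμ-Myc ran from 0.94-fold to 1.49-fold, and the log2 fold change was 0.13 without WT library 4 and 0.06 with total coverage scaling.

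Dnajb9 and Herpud1 were not called in the main test of any comparison. Dnajb9 (chr12:44205559-44210326) encodes ERdj4, a co-chaperone of BiP that represses IRE1, and is a known target of XBP1. It was at 71.6, 43.4, 37.3 and 73.1 in the WT libraries, 39.8, 35.4, 70.6 and 38.1 in the Eμ-Myc libraries, and 51.7, 60.0, 22.5 and 23.4 in the knockout libraries. Each group held both high and low libraries, and the lowest values were those of knockout libraries 3 and 4. For Eμ-Myc against WT the log2 fold change was -0.29 (SE 0.28, limma adjusted p 0.409). It was -0.51 without Eμ-Myc library 3, -0.14 without WT library 4 and 0.32 with library quality weights. For the knockout against WT it was -0.58 (SE 0.39, adjusted p 0.240). With library quality weights it was called lower for the knockout than for WT (-0.95, adjusted p 9.56e-04) and than for Eμ-Myc (-1.19, adjusted p 0.00320), and it was also called lower in both comparisons without knockout libraries 1 and 2. Without libraries 3 and 4 the direction turned, to 0.045 against WT and 0.33 against Eμ-Myc.

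Herpud1 (chr8:94386438-94395377) encodes HERP, which helps assemble the complex that returns misfolded proteins to the cytosol for degradation. It was at 287, 363, 303 and 207 in the WT libraries, 263, 283, 257 and 268 in the Eμ-Myc libraries, and 247, 289, 253 and 258 in the knockout libraries. The WT libraries spanned all others, and against WT the log2 fold change was -0.09 (SE 0.16, limma adjusted p 0.659) for Eμ-Myc and -0.12 (SE 0.18, adjusted p 0.583) for the knockout. The latter was called with library quality weights (-0.27, adjusted p 0.0421).

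**Figure D2:**
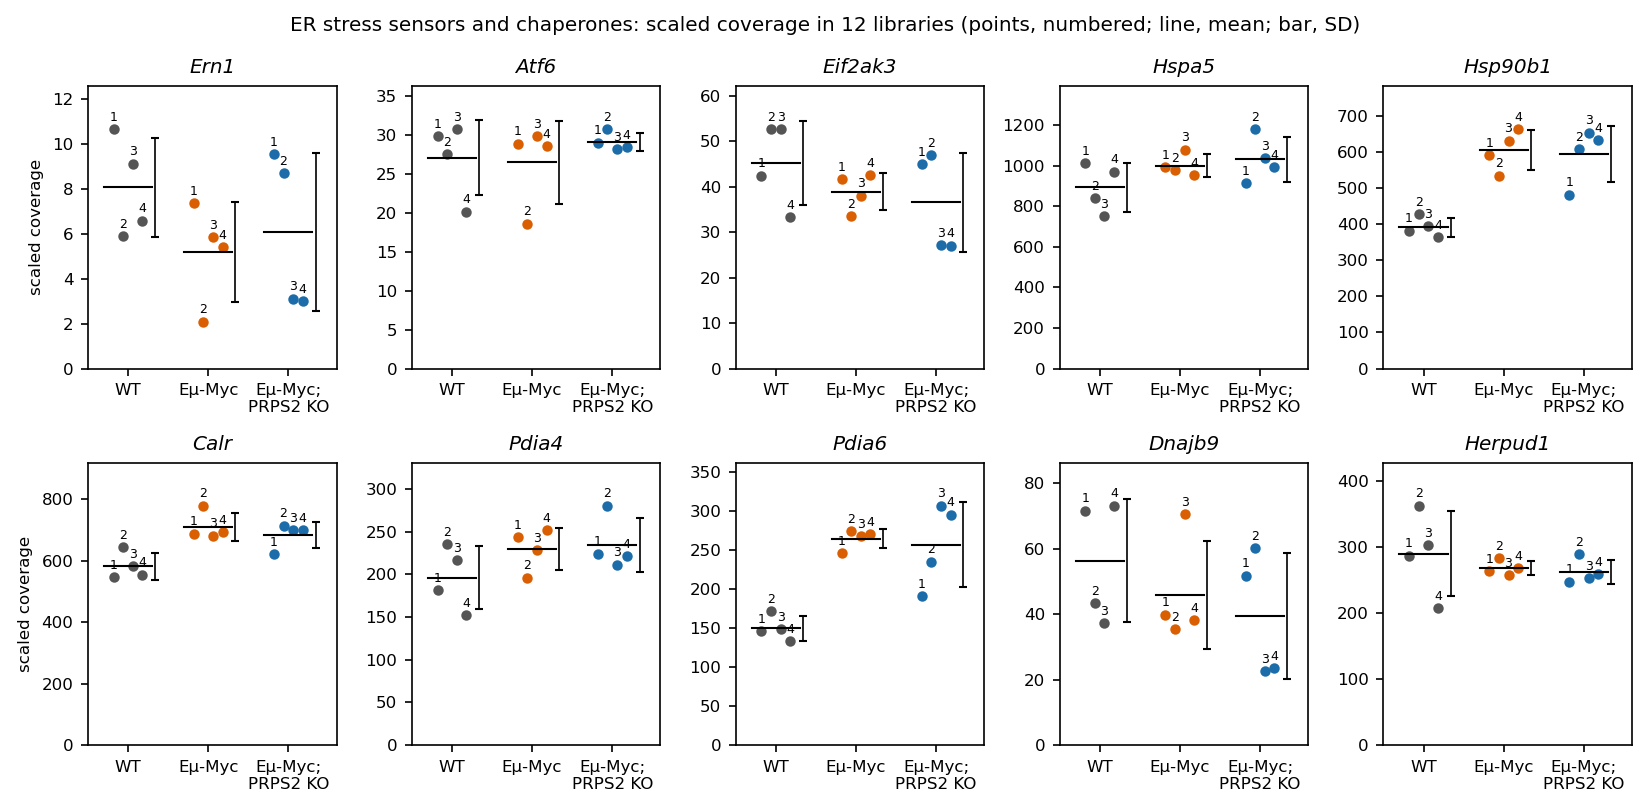
Scaled coverage (y axis, linear from 0) of each member in WT, Eμ-Myc and Eμ-Myc; PRPS2 KO; points are libraries with their replicate number, lines are means of 4 and bars are SDs. Hsp90b1 and Pdia6 are above WT in all 8 libraries of both Eμ-Myc genotypes, while Ern1, Eif2ak3 and Dnajb9 are low in knockout libraries 3 and 4.

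Read as coverage per base, the order of the mean levels was the same in the 3 groups except that Pdia4 was above Pdia6 in WT and below it in the others. Hspa5 was highest (mean 893 ± 120 in WT and 1000.1 ± 55.0 in Eμ-Myc), followed by Calr (582 ± 44.6 and 710 ± 46.3) and Hsp90b1 (393 ± 26.3 and 606 ± 55.7). Herpud1, Pdia4 and Pdia6 came next, between 150 and 290 in WT, and Dnajb9, Eif2ak3 and Atf6 lay between 27.0 and 56.3. Ern1 was last at 8.08 ± 2.22 in WT. Neighbours whose libraries overlapped in WT were Herpud1 with Pdia4, Pdia4 with Pdia6, and Dnajb9 with Eif2ak3. In Eμ-Myc, Pdia6 overlapped Herpud1 and Pdia4, and Dnajb9 overlapped Eif2ak3. The knockout group had all of these overlaps, and also Calr with Hsp90b1 and Atf6 with Dnajb9 and Eif2ak3.

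In Eμ-Myc against WT, 3 of 10 members rose and none fell in limma's test at an adjusted p under 0.05. The background in that comparison was 55.1% of 12723 genes called and 30.4% called higher, so 3 of 10 is no more than the background. The same 3 members were those whose groups did not overlap; over all genes that share was 51.4%. The median log2 fold change of the members was 0.07, against -0.01 over all genes tested. Scaling by total coverage moved the median of all genes to -0.19 and the part of all calls that were higher from 55.2% to 42.0%. Under it Pdia6 (0.64, adjusted p 5.92e-04) and Hsp90b1 (0.44, adjusted p 0.00886) were still called higher.

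When the knockout group was set against WT, 2 of 10 members, Hsp90b1 and Pdia6, were called, both higher. The background was 29.3% of 12692 genes called, 19.7% called higher and 37.1% with groups that did not overlap, and the same 2 members did not overlap; 2 of 10 is close to or below each of these shares. Both comparisons with WT share the WT libraries, so they are not independent. Neither call held when any single WT library or knockout library 3 or 4 was left out: the adjusted p then ran from 0.0527 to 0.0709 for Hsp90b1 and from 0.0573 to 0.0747 for Pdia6, with log2 fold changes of at least 0.54 and 0.66. Without knockout libraries 3 and 4 together no member was called (Hsp90b1 0.47, Pdia6 0.50), in a fit that called fewer genes in all than the main one. Without libraries 1 and 2 there were 6, in a fit where 8617 genes were called in all. Hsp90b1 (0.72), Pdia6 (1.01) and Calr (0.27) were higher, and Ern1 (-1.24), Eif2ak3 (-0.70) and Dnajb9 (-1.21) were lower.

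When it was set against Eμ-Myc, 0 of 10 members were called by limma in the main test, and 0 had an unadjusted p under 0.05. Over all 12551 genes 0.00797% were called, which is 1 gene, Prps2 itself, and 121 genes had an unadjusted p under 0.05. No member's groups were free of overlap; over all genes 1.52% were. The intervals say what size of difference the libraries leave possible. They were narrowest for Herpud1 (0.976-fold, 95% interval 0.825 to 1.15), Calr (0.962-fold, 0.812 to 1.14) and Hspa5 (1.03-fold, 0.854 to 1.24). For Hsp90b1 the fold was 0.979 (0.786 to 1.22), for Pdia6 0.955 (0.733 to 1.25) and for Pdia4 1.02 (0.816 to 1.27). Among the sensors it was 1.11 for Atf6 (0.856 to 1.45), 0.913 for Eif2ak3 (0.647 to 1.29) and 1.11 for Ern1 (0.510 to 2.42). It was widest, after Ern1, for Dnajb9 at 0.814 (0.445 to 1.49).

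**Figure D3:**
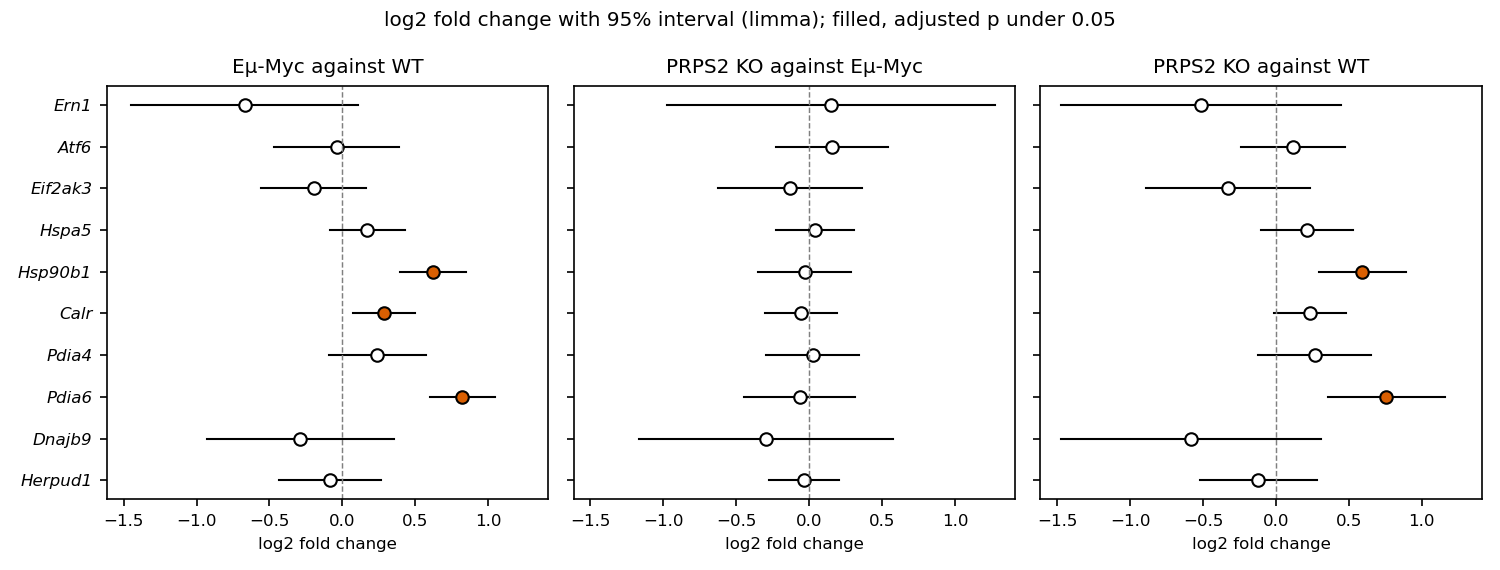
log2 fold change (x axis) of each member in the 3 comparisons; circles are limma estimates, lines 95% intervals, and filled circles an adjusted p under 0.05. Pdia6, Hsp90b1 and Calr are filled in Eμ-Myc against WT, Pdia6 and Hsp90b1 in the knockout group against WT, and none in the knockout group against Eμ-Myc.

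The knockout libraries did not move as one. Libraries 3 and 4 were both lower than 1 and 2 in Ern1, Eif2ak3, Dnajb9, Pdia4 and Atf6, and both higher in Pdia6 and Hsp90b1. In Hspa5, Calr and Herpud1 they lay between 1 and 2. Set against the Eμ-Myc range, Eif2ak3 and Dnajb9 in 3 and 4 were below it and Pdia6 was above. Ern1, Hspa5, Hsp90b1, Calr, Pdia4 and Atf6 lay within it, as did Herpud1 in library 4 but not in library 3. Relative to the WT mean of log2 coverage, Dnajb9 was at -0.06 and 0.15 in libraries 1 and 2 and at -1.24 and -1.19 in 3 and 4. Ern1 was at 0.26 and 0.14, then -1.21 and -1.26. Pdia6 was at 0.35 and 0.65, then 1.04 and 0.98. Xbp1, the factor that IRE1 activates, was at -0.26 and -0.05, then -1.27 and -1.24. Myc was lowest in knockout library 1 (1099) and highest in libraries 3 and 4 (3017 and 3282). Against Eμ-Myc and without libraries 1 and 2, limma called 2 members, Eif2ak3 (-0.51, adjusted p 0.0276) and Dnajb9 (-0.93, adjusted p 0.0370), beside 3495 genes in all. Without libraries 3 and 4 it called no member and 524 genes.

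Other cell types moved with the same libraries. The summed coverage of 9 T-cell markers was 756 and 873 in knockout libraries 1 and 2 and 63.8 and 63.2 in 3 and 4. It was 165 to 224 in Eμ-Myc and 652 to 3471 in WT. The 7 NK-cell markers summed to 634 and 484, then 26.8 and 24.9, in the knockout libraries, 108 to 270 in Eμ-Myc and 399 to 1578 in WT. In Eμ-Myc against WT, 9 of 9 T-cell and 7 of 7 NK-cell markers fell, while 0 of 10 myeloid and 0 of 7 erythroid markers were called. Between the knockout group and Eμ-Myc none of these markers was called. Myeloid markers summed to 8429 to 25331 in WT, 5852 to 17234 in Eμ-Myc and 1382 to 15875 in the knockout group. Within WT, Hsp90b1 and Pdia6 were lowest in library 4, which had the highest T-cell sum, and highest in library 2, which had the lowest; Calr was also highest in library 2 but lowest in library 1. The part of other cells in the differences of Hsp90b1, Pdia6 and Calr was not tested. In bulk RNA, fewer cells of a type and less RNA per cell cannot be told apart.

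Plasma cells, which hold a large ER, were looked at with 7 markers. Slamf7 (1.22), Mzb1 (1.30) and Tnfrsf17 (1.10) rose and Prdm1 (-1.08) fell in Eμ-Myc against WT (log2 fold changes, limma adjusted p at most 0.00344). Their sum was 569 to 918 in WT, 1127 to 1443 in Eμ-Myc and 871 to 1157 in the knockout group. Mzb1, itself an ER cochaperone of B cells, averaged 303, 713 and 626 over the WT, Eμ-Myc and knockout libraries. Sdc1, the classical surface marker, stayed between 5.96 and 12.8 in all 12 libraries. Within the knockout group the markers went in both directions. Jchain was between 184 and 318 in 10 libraries and at 2.00 and 2.44 in knockout libraries 3 and 4, where Tnfrsf17 (0.333 and 0.111, after 3.35 and 3.11 in 1 and 2) and Prdm1 (0.333 and 0.333, after 3.55 and 3.84) were also lower. Mzb1 (795 and 745, after 430 and 535) and Slamf7 (208 and 213, after 131 and 141) were higher there. No marker of the 7 was called between the knockout group and Eμ-Myc, none was at 0 in any library, and their part in the members' differences was not tested.

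**Figure D4:**
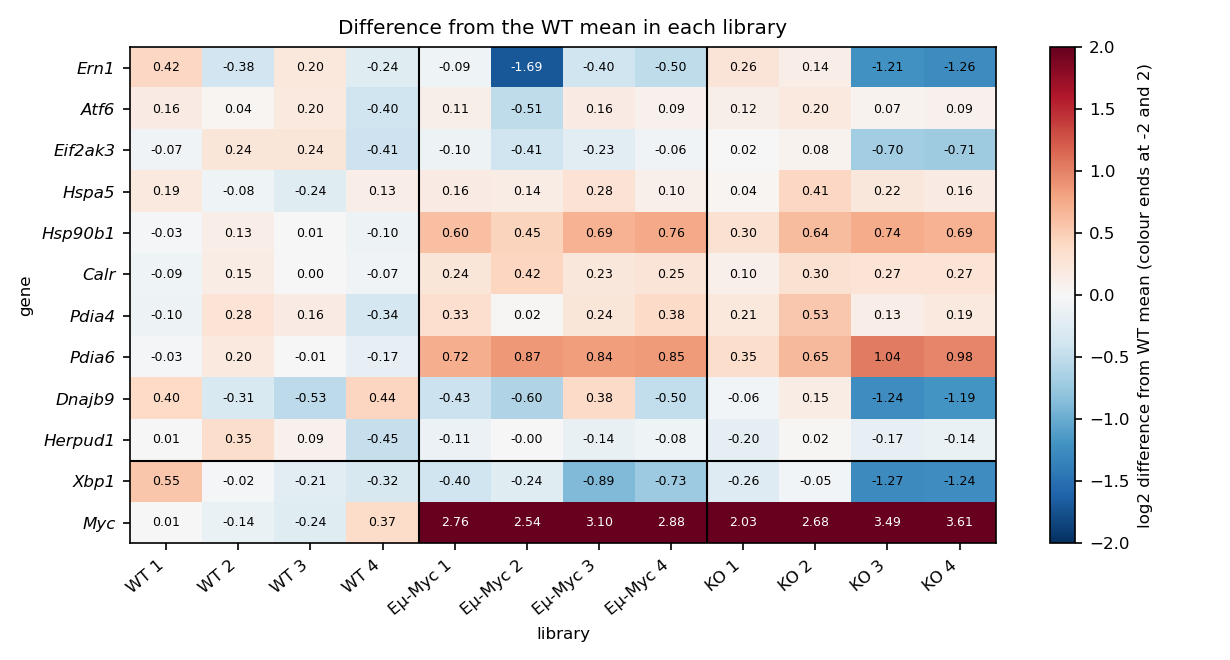
log2 difference of each member, Xbp1 and Myc (rows) from its WT mean in each of 12 libraries (columns), on log2(scaled coverage + 0.5); the colour scale ends at -2 and 2 and the numbers give the values. Knockout libraries 3 and 4 stand out by blue cells for Ern1, Eif2ak3, Dnajb9 and Xbp1, and Pdia6 is red in all 8 libraries of both Eμ-Myc genotypes.

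Other genes of the ER were counted from lists chosen by function; their counts stand beside the 55.1% of all genes called in Eμ-Myc against WT and the 30.4% called higher. Of 21 further ER chaperones and foldases, 13 rose and 1 fell in Eμ-Myc against WT, with a median log2 fold change of 0.49 beside the -0.01 of all genes. Fkbp11, a prolyl isomerase (3.13, SE 0.19, limma adjusted p 3.16e-06), Sdf2l1, a partner of BiP (1.21, SE 0.12, adjusted p 4.15e-05), and Canx, the membrane lectin calnexin (0.94, SE 0.11, adjusted p 8.97e-05), had the smallest adjusted p among those that rose. Ero1lb, an oxidase that recharges disulfide isomerases, fell by 0.85 (adjusted p 0.00313; 0.0632 in a joint fit of the 12 libraries). Of 16 N-glycosylation genes 11 rose and none fell (median 0.60), led by Mogs (1.06), a glucosidase, and Rpn1 (1.11), an oligosaccharyltransferase subunit. Of 22 translocon and signal recognition genes 15 rose and none fell (median 0.44), led by Srp19 (1.03) and Ssr2 (0.99). With total coverage scaling 9 were called, where 7284 genes were called in all, against 7016 in the main fit.

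The genes downstream of the sensors and those of degradation were mixed in direction. Of 19 sensor pathway components 6 rose and 6 fell (median 0.15), which is near the 55.1% of all genes called and the 30.4% called higher. Eif2s1, which encodes eIF2α, the target of PERK, rose by 1.43 (SE 0.10, limma adjusted p 6.94e-06), and Rtcb, the ligase that joins the cut Xbp1 RNA, rose by 0.82. Map3k5, the kinase ASK1, fell by 1.23 and Ddit3, the factor CHOP, fell by 0.81; neither was called in a joint fit of the 12 libraries (adjusted p 0.0642 and 0.0542). Xbp1, named after its values were seen, averaged 227 ± 66.0 in the WT and 151 ± 31.1 in the Eμ-Myc libraries (SD, n = 4 each), a log2 fold change of -0.56 (SE 0.21, adjusted p 0.0441). The groups overlapped, and the call was lost with no filter on low values (adjusted p 0.0570), in the joint fit (0.140) and without WT library 1 or 2 or Eμ-Myc library 1, 3 or 4. The knockout gave -0.70 against WT (adjusted p 0.121). The coverage does not separate spliced from unspliced Xbp1. Of 18 degradation genes 3 rose and 4 fell (median -0.04), fewer than the 55.1% of all genes. Vcp, the ATPase that pulls proteins from the ER, rose by 0.61, and Edem1, a mannosidase-like lectin, fell by 0.69.

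In the knockout group against WT, where 29.3% of all genes were called, the lists held 9 higher and 1 lower among chaperones and foldases, 8 and 0 in N-glycosylation, 5 and 0 in the translocon list, 3 and 3 among sensor components, and 3 and 2 in degradation. The difference from the Eμ-Myc counts was not tested, and its direction depends on the fit. In a joint fit of the 12 libraries the knockout group and Eμ-Myc had, against WT, 12 and 11 calls among chaperones and foldases. The others were 11 and 11 in N-glycosylation and in the translocon list, 12 and 9 among sensor components, and 7 and 6 in degradation. The share of all genes called in that fit is not given here, so these counts have no background beside them. The knockout counts moved with single libraries: leaving out any WT library or knockout library 3 or 4 left 2 to 4 chaperones and foldases, 1 to 3 N-glycosylation genes and 0 in the translocon, sensor and degradation lists. Without knockout library 1 they were 12 chaperones and foldases, 12 N-glycosylation genes, 13 translocon genes, 12 sensor components and 8 degradation genes. The count over all genes moved too, from 600 to 6633 when 1 library was left out, against 3716 in the main fit. These moves are therefore not read as changes of the ER lists. Without knockout libraries 1 and 2, in the same order of lists, the list counts were 14, 14, 18, 16 and 8. Without 3 and 4 they were 3, 4, 0, 1 and 0. Far more genes were also called over all genes without 1 and 2 than without 3 and 4, so the 29.3% is not the background of either fit.

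For the knockout group against Eμ-Myc, limma called 0 genes in each of the 5 lists in the main test, and 0 had an unadjusted p under 0.05. Without knockout libraries 1 and 2 it called 3 chaperones and foldases, 3 N-glycosylation genes, 1 translocon gene, 6 sensor components and 3 degradation genes, where 3495 genes were called in all. Without libraries 3 and 4 it called none in the 5 lists. Weights for library quality gave 9, 13, 7, 12 and 10 in the same order of lists, where 7460 genes were called in all.

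**Figure D5:**
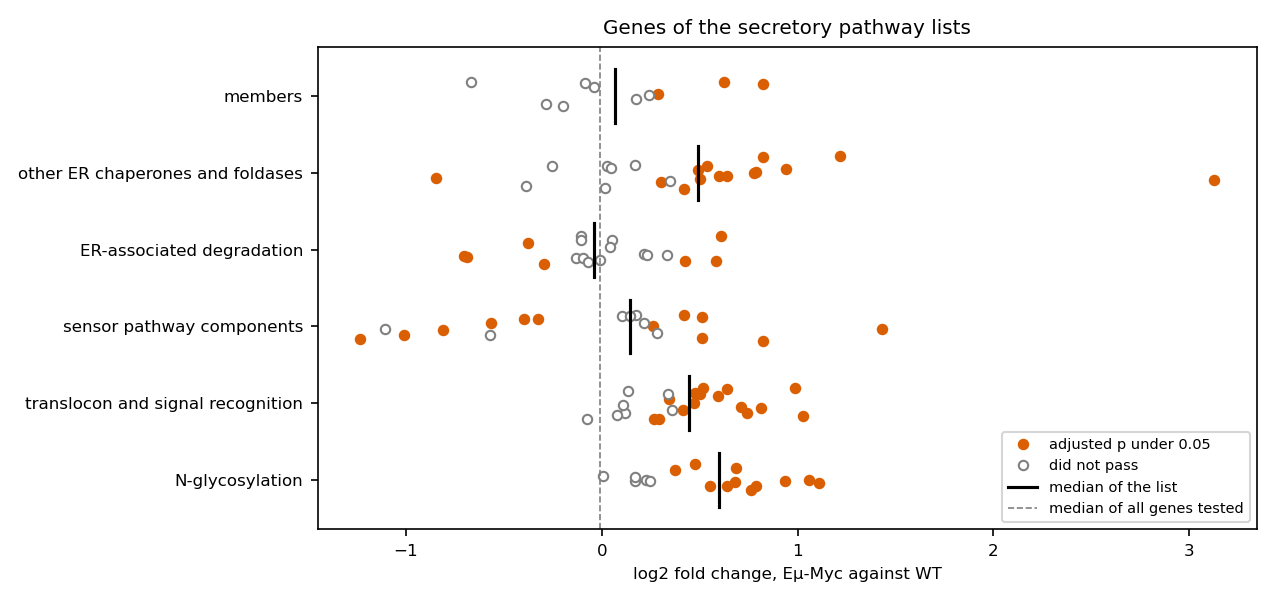
log2 fold changes (x axis) in Eμ-Myc against WT of the 10 members and of 5 lists of ER genes; each point is a gene, orange for an adjusted p under 0.05, black lines are list medians and the dashed line is the median of all genes tested. The N-glycosylation and translocon lists have no called gene below 0, and the degradation and sensor lists have called genes on both sides.

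Genes that share the ERSE with members were also counted, a list made after the members' values were known. Of 37 genes with it, 31 were matched in the files and 18 were tested in Eμ-Myc against WT; 7 rose and 3 fell, with a median log2 fold change of 0.25, and 10 of 18 is about the 55.1% of all genes called. Without the 4 members it was 7 of 14 (4 higher and 3 lower), with a median of 0.06. Of those with the element, Pdia6, Hsp90b1 and Calr rose and Hspa5 did not pass, and Ero1lb fell while Canx rose, so the element was present in genes of both directions.

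The genes whose pattern over the 12 libraries was most like that of Hspa5 and Ern1 were looked up by Pearson's r of log2 coverage among 12955 genes, as a description, since the libraries share genotypes and cell makeup. For Hspa5 they were Rsrc2 (0.89), Acap3 (0.88), Socs6 (0.87), Dnaja1 (0.85), a cytosolic HSP40 chaperone, and Snora21 (0.85). For Ern1 they were Foxo3 (0.98), Dclre1c (0.98), Lyst (0.96), Xpr1 (0.96) and Wdfy2 (0.96). No member was among either 5. Of the members, Eif2ak3 (0.74) and Dnajb9 (0.67) were closest to Ern1, and Calr (-0.69) and Pdia6 (-0.68) were most opposite. With Hspa5, Hsp90b1 (0.55) and Pdia6 (0.50) were highest of the members, and Eif2ak3 (-0.43) and Herpud1 (-0.36) were most opposite.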

How the data were processed

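Libraries of polyadenylated RNA were made with a directional kit, per the labels. The authors deposited 1 file per library with 1 value per gene symbol, given to 1 decimal and taken as a coverage signal from how the files are named and from the values; 91.6% of the values above 0 were not whole (tolerance 1e-06), so no count model was used. The submitters' processing notes name mm10, DESeq and R 4.3.3 without a role; the aligner and the counting step are not given in the sources used here. Values were scaled by an unweighted trimmed mean of log ratios (trimming 30% of the ratios and 5% of the mean values from either end). limma 3.58.1 in R 4.3.3, with trend and robust moderation, was fitted to log2(scaled coverage + 0.5) over the 8 libraries of each comparison, for genes at 1 or more in at least 4 of them. Fold changes are on that scale, which understates those of low genes. P-values were two-sided and Benjamini-Hochberg adjusted over all genes tested, called under 0.05; they measure the spread between samples the labels call biological replicates. Python 3.11.15, pandas 2.3.3 and matplotlib 3.10.9 made the tables and figures.

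All 10 members were tested and named. From each list up to 3 called genes per direction with the smallest adjusted p could be named, and the 5 genes most correlated with Hspa5 and Ern1. A gene that this rule selected is not reported here. Members, lists and tests were chosen with earlier results of these data known. Exon positions come from GENCODE M21 (GRCm38, the assembly of mm10), promoters from RefSeq GRCm38.p6.

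Same-numbered libraries of the knockout and Eμ-Myc groups deviated together (r over genes 0.638, 0.187, 0.243 and 0.596, all over 0.1) and were taken as pairs in an alternative. For only 2 of the 4 knockout libraries did the Eμ-Myc library of the same number give the highest r. The pairing comes from the values, not from the labels, and the values do not settle it. Other alternatives were 2 scalings, 2 filters, pseudocounts of 0.1 and 2, all 12 libraries in one fit, library weights and leaving out libraries.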

Additional observations from a re-analysis of the deposited data

Results flagged for a closer look

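Of 30 sets of 4 libraries (10 members in 3 groups), 3 had 1 library far from the other 3, by a gap divided by the range above Dixon's critical value at 95%; chance gives about 1 in 20. Atf6 was at 18.6 in Eμ-Myc library 2 and between 28.5 and 29.8 in the others (ratio 0.885). Calr was at 779 in the same library and between 681 and 693 in the others (0.878). Dnajb9 was at 70.6 in Eμ-Myc library 3 and between 35.4 and 39.8 in the others (0.874).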

How the results depend on the processing

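In Eμ-Myc against WT, Pdia6 and Hsp90b1 kept their direction and their call in all alternatives. The members called were 3, beside 7016 of all 12723 genes, and 2 to 3 when each library was left out, beside 5770 to 6857 genes. With the replicate block they were 4 (adding Ern1, adjusted p 0.0383), in a fit whose count of all genes is not given here. With library quality weights they were 5 (adding Hspa5 and Eif2ak3), beside 8808 of all 12723 genes. For the knockout against Eμ-Myc they were 0, also with the replicate block and without each library, 4 with weights (7460 genes in all against 1) and 2 without knockout libraries 1 and 2. For the knockout against WT they were 2; 0 to 2 without each library, 0 with the replicate block (Hsp90b1 adjusted p 0.0515, Pdia6 0.0538), 8 with weights, 0 without knockout libraries 3 and 4 and 6 without 1 and 2. All genes called there were 3716, 600 to 6633 without each library, 1863 with the block and 10505 with weights, and 1323 or 8617 without knockout libraries 3 and 4 or 1 and 2. Same-numbered deviations correlated with r 0.225, -0.098, 0.251 and 0.128 (Eμ-Myc and WT) and 0.391, -0.408, 0.136 and -0.062 (knockout and WT), so there the samples share only a number. The block changed no other member's call.

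Some uncalled log2 fold changes, between -0.58 (Dnajb9, knockout against WT) and 0.17 (Hspa5, Eμ-Myc against WT), changed sign; the cause was not tested. In Eμ-Myc against WT total coverage scaling gave -0.011 for Hspa5, weights gave 0.032 for Atf6 and 0.32 for Dnajb9, and leaving out libraries gave -0.17 to 0.12 for Atf6 and -0.24 to 0.031 for Herpud1. For the knockout against Eμ-Myc, weights gave -0.79 for Ern1 (adjusted p 0.00633), -0.023 for Atf6, -0.032 for Hspa5, 0.017 for Hsp90b1, 0.021 for Calr, -0.10 for Pdia4 and 0.16 for Pdia6 (adjusted p 0.0429). Leaving out each library gave -0.19 to 0.40 for Ern1, -0.0013 to 0.22 for Atf6, -0.028 to 0.095 for Hspa5, -0.089 to 0.066 for Hsp90b1, -0.065 to 0.071 for Pdia4 and -0.16 to 0.068 for Pdia6. Without knockout libraries 3 and 4 it was 0.24 for Eif2ak3 and 0.33 for Dnajb9; without 1 and 2 it was -0.57 for Ern1, 0.093 for Hsp90b1, -0.082 for Pdia4 and 0.19 for Pdia6. For the knockout against WT, Atf6 was -0.033 with total coverage scaling and -0.014 to 0.19 without each library, and without knockout libraries 3 and 4 Ern1 was 0.20, Eif2ak3 0.046 and Dnajb9 0.045.

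Library weights let libraries that lie close together count more, and knockout libraries 3 and 4 were the closest pair of that group. The fitted weights are not shown here, and their part in the weighted calls was not tested. With the depth unknown, the limit of a low gene such as Ern1 cannot be stated.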
